A study of Mus musculus with 4 samples.

Results

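The genes described here are the kinases of the mitogen-activated protein kinase (MAPK) cascade, taken by symbol: every symbol in the count files that starts with Mapk, Map2k, Map3k or Map4k followed by a number, or with Mapkapk. The pattern matched 52 of 18256 symbols. Of these, 45 are kinases and 7 are other genes that carry such a symbol (among them scaffold proteins, interacting proteins and 1 RNA gene annotated as antisense). The rule reads symbols alone. In the cascade, a MAP4K or a small GTPase activates a MAP3K, which phosphorylates a MAP2K, which phosphorylates a MAPK, and some MAPKs pass the signal to MAPK-activated kinases (MAPKAPK). The classical MAPKs are the ERKs, the JNKs and the p38 kinases. In macrophages, bacterial lipopolysaccharide (LPS) acts through Toll-like receptor 4 on these branches, and they control the making and the stability of cytokine mRNA.

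RNA was sequenced from cultured mouse bone marrow macrophages in 2 groups of 2 libraries. Marrow cells of WT mice were grown for 7 days with 20 ng/ml recombinant macrophage colony-stimulating factor (MCSF), and the medium was renewed every 48 h. From day 6, M0 cells spent 24 h with MCSF alone, and M1 cells spent 24 h with LPS at 100 ng/ml plus the cytokine IFN-γ at 20 ng/ml. Whether MCSF stayed in the M1 medium is not stated, nor are the animals' number, strain and age. Ribosomal RNA was removed from total RNA before library preparation. The labels do not tell whether the 2 replicates of a group are separate mice or cultures. The p-values therefore reflect no more than the spread among these 4 libraries, which may be technical.

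Library totals ran from 15921466 to 18987705 counts, and 12966 genes passed the filter on low counts. Marker genes of macrophages summed to 20682 and 22989 CPM (counts scaled by library size and the TMM factor of the library) in M0 replicates 1 and 2 and to 29692 and 29207 in M1 replicates 1 and 2, and of the 8 markers 4 were higher, 2 lower and 2 not passed. Lyz2 (mean CPM of 15503 in M0, 18075 in M1) and Csf1r (3401 and 3100) made up most of these sums, and neither passed. Sums of markers of other cells were low beside these sums, and they hide opposite moves. In M0 the stromal genes Col1a1 and Col1a2 (means of 310 and 367 CPM) stood above Itgam, Fcgr1 and Mertk (120, 98.5 and 152 CPM). They stood below the other macrophage markers. Neutrophil genes summed to 348 to 382 CPM in the 4 libraries: 6 of 9 tested were lower, S100a9, Ngp and Ltf among them, and 2 were higher, among them Csf3r (mean CPM of 108 in M0, 239 in M1). Stromal genes summed to 682 to 705 CPM in M0 and 463 to 523 CPM in M1: Col1a1 and Col1a2 were lower, and the other 5 of 7 were higher. The 5 B cell genes in the files summed to 149 and 137 CPM in M0 and to 35.9 and 37.5 CPM in M1. Nearly all of this was Ighm, which was lower, with 144 and 133 CPM in M0 and 32.1 and 36.2 CPM in M1. Cd79b did not pass (mean CPM of 4.61 in M0, 2.52 in M1), and the defining gene Ms4a1 was at 0. Of the genes of red cells and platelets, Pf4 was higher (17.4 CPM in M0, 64.3 CPM in M1) and Gp1ba lower (2.14 and 0.585 CPM), Itga2b did not pass, and Hba-a1 and Klf1 had no count in M1. T and NK cell, dendritic and mast cell genes each summed to at most 8.92 CPM in any library. The part of these differences in the values below was not tested. In bulk RNA, fewer cells of a type and less RNA per cell cannot be told apart.

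Each tier of the cascade held kinases whose mRNA differed between M0 and M1, but so did 48.2% of all tested genes (24.2% higher, 24.0% lower). The share called was 42.9% of the tested MAP2K genes, 60.0% of the MAP4K and of the MAP3K genes and 33.3% of the MAPK genes. Among the MAPK-activated kinases it was 66.7%. These shares rest on 3 to 15 tested genes a tier, and the direction within a tier was not tested. The MAP2K tier held 3 genes that rose and none that fell (Map2k1, Map2k2 and Map2k3). The MAP4K tier held 3 that fell and none that rose (Map4k1, Map4k2 and Map4k3). In the MAP3K tier 6 fell and 3 rose, in the MAPK tier 2 rose and 1 fell, and among the MAPK-activated kinases Mapkapk2 rose and Mapkapk3 fell. Map2k1, which encodes the ERK-activating kinase MEK1, was 2.35-fold higher in M1, and Map3k9, which encodes the mixed-lineage kinase MLK1, was 4.22-fold lower.

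Of the 52 genes, 44 passed the filter on low counts. By the edgeR quasi-likelihood test, with p-values adjusted by the Benjamini-Hochberg method across the whole table, 11 of the 44 were higher and 12 lower in M1, and 21 did not pass the threshold of 0.05. This is 52.3% of the members tested, against a background of 48.2% of all tested genes (24.2% higher and 24.0% lower), so the number called is not a result about these genes. Their median log2 fold change, M1 over M0, was 0.01, against -0.02 over all tested genes. Changes of at least 1 on the log2 scale were called in 6 of the 44 (13.6%), against 21.5% of all tested genes. The libraries of M0 and M1 did not overlap for 32 of the 44 (72.7%), against 74.9% of all tested genes, and they overlapped for none of the 23 called. Scaling to library totals moved the median of all genes by -0.25 on the log2 scale, and then 8 members were higher and 16 lower. Under that scaling 29.8% of the calls over all genes were higher in M1, against 50.3% with the TMM scaling used here. Scaling by the upper quartile moved the median by -0.10 and gave 9 higher and 13 lower members, with 41.0% of the calls over all genes higher. Not one of the 23 called genes reversed its direction in any of the 13 alternative settings tried.

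**Figure D1:**
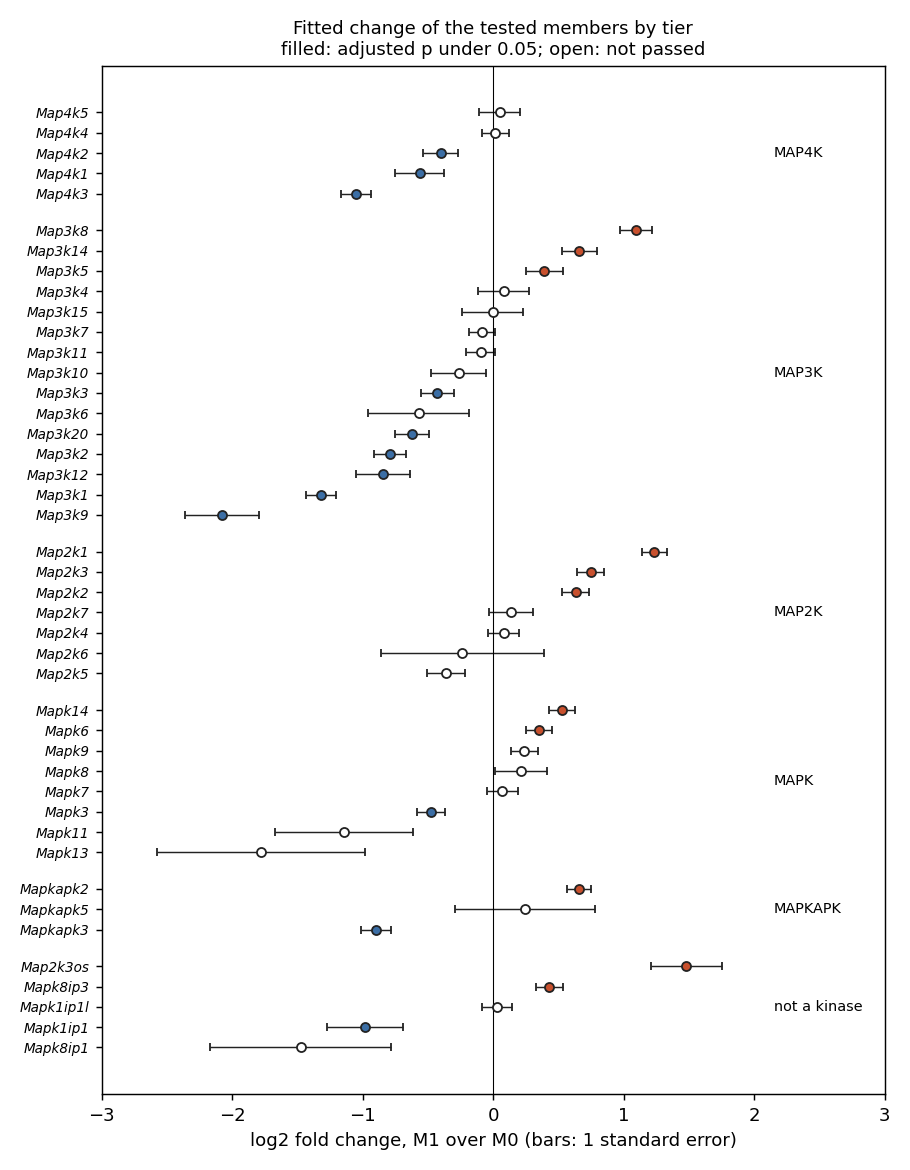
Fitted log2 fold change (x axis, M1 over M0, bars of 1 standard error) of the tested members, 1 left out, grouped by tier. Filled points passed an adjusted p of 0.05 (red higher, blue lower) and open points did not: the called MAP2K genes lie to the right of 0, the called MAP4K genes to the left, and Map3k9 lies farthest from 0 among the called genes.

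To show the sequence beside the values, 5 stretches upstream of RefSeq start sites are printed, from the RefSeq promoter table of GRCm38.p6, 5′ to 3′ on the strand of the gene. They belong to Map2k1 and Map2k2, a pair that rose together, to Mapkapk2 and Mapkapk3, a pair that moved in opposite directions, and to Mapk14, the p38 gene that rose. Only bases with no annotated exon are shown. Map2k1 is at chr9:64253632-64253855 (minus strand), Map2k2 at chr10:81105665-81105914 (plus), Mapkapk2 at chr1:131097844-131098093 (minus), Mapkapk3 at chr9:107289878-107290127 (minus) and Mapk14 at chr17:28692318-28692567 (plus). The Mapk14 stretch lies before its second listed start, inside the gene, and was taken because its window holds no annotated exon base. It holds motif matches. The window before the first Mapk14 start, chr17:28691092-28691341, held no match (70.4% GC, 30 CG pairs). That window reaches into the annotated gene and is not printed, whereas the Map2k1 window, with 26 exon bases, was cut to 224 bases and printed. Capitals mark matches to 5 motifs, searched on both strands.
Map2k1: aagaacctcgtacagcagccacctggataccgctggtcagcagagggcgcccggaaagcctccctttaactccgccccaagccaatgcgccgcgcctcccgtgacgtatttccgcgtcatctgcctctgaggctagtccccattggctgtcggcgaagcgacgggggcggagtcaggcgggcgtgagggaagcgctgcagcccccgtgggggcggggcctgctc
Map2k2: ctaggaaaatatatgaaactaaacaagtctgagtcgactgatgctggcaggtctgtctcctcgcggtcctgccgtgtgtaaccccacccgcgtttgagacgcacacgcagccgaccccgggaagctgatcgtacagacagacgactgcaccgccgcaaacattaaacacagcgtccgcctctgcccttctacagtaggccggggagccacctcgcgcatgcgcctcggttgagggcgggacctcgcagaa
Mapkapk2: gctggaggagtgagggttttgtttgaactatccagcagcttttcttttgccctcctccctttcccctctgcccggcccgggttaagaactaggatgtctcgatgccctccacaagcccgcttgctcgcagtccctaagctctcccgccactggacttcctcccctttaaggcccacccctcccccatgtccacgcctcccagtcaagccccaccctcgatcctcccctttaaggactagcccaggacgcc
Mapkapk3: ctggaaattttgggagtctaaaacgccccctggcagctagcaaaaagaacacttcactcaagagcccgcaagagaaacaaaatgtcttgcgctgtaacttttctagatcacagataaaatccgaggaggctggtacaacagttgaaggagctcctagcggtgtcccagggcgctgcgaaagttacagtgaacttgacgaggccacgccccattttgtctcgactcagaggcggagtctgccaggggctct
Mapk14: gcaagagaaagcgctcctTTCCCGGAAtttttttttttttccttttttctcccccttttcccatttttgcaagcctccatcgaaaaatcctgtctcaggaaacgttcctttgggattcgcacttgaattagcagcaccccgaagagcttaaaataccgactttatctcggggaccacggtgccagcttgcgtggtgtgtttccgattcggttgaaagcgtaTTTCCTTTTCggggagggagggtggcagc
The motifs were AP-1 (TGANTCA), the cyclic AMP response element (TGACGTCA), the interferon-gamma activated site GAS (TTCNNNGAA), the interferon-stimulated response element (ISRE) and the NF-κB consensus. In the Mapk14 stretch the capitals are 1 GAS match, TTCCCGGAA, and 1 ISRE match on the other strand, TTTCCTTTTC, which do not overlap. The other 4 stretches held no match. A window before another start of Mapkapk3 held 1 ISRE match, 7 to 16 bases before that start.

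The GC content of these stretches ran from 48.4% (Mapk14) to 67.9% (Map2k1), and Map2k2 and Map2k1 carried 23 and 22 CG pairs against 9 in Mapkapk2. The table held 54 windows of 250 bases for 41 of the 52 members. Of these windows 3 held AP-1, 1 the cyclic AMP element, 2 GAS, 3 ISRE and 6 the NF-κB consensus. Among the last, 2 overlapping windows of Mapk7 hold the same site, which is thus counted at both. Over all 32851 windows of 27025 genes the shares were 6.75%, 1.55%, 7.02%, 2.98% and 7.25% in the same order. A match is a description of letters and not a binding site, and a window with no match says nothing of the factor.

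The MAP4K tier, kinases that act on MAP3Ks, held 3 genes that fell and 2 that did not pass. Map4k3 (chr17:80580512-80728485, mm10), whose product GLK acts in amino acid and JNK signalling, had 124 and 117 CPM in M0 replicates 1 and 2 and 54.3 and 61.9 CPM in M1 replicates 1 and 2. Both M1 libraries lay far below both M0 libraries. Map4k3 was 2.07-fold lower, with a log2 fold change of -1.05 ± 0.112 (standard error) and an adjusted p of 1.59e-05 by the edgeR quasi-likelihood test.

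Map4k1, which encodes the blood cell kinase HPK1, had 13.7 and 14.9 CPM in M0 and 10.2 and 9.16 CPM in M1 (log2 change -0.56 ± 0.19, adjusted p = 0.0301). Map4k2, a kinase of the JNK branch, had 32.6 and 33.2 CPM in M0 and 25.2 and 24.6 CPM in M1 (-0.40 ± 0.133, adjusted p = 0.0279). The groups did not overlap for either gene, but both calls depended on single libraries. Over the 13 alternative settings the adjusted p of Map4k1 ran from 0.00371 to 0.155, and its call was lost without either M0 replicate, without M1 replicate 2 and with DESeq2. For Map4k2 it ran from 0.00165 to 0.134, and the call was lost without any 1 of the 4 libraries, with the replicate number as a block and with DESeq2. Map4k4, which encodes HGK, had 105 and 103 CPM in M0 and 100.5 and 111 CPM in M1, and Map4k5, which encodes KHS1, had 32.5 and 25.7 CPM in M0 and 32.7 and 27.5 CPM in M1. Both overlapped between groups and did not pass (log2 fold changes of 0.02 and 0.05). Per kilobase of exon, Map4k3 was the highest of the tier in M0 (12.2 CPM per kb, against 10.9 for Map4k4), and Map4k4 was the highest in M1 (11.0 against 5.86 for Map4k3). With the mean transcript length in place of all exon bases, Map4k4 was the highest in both groups.

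The 17 genes of the MAP3K tier encode kinases that respond to receptors, to stress or to other kinases. Of the 15 tested, 3 rose, 6 fell and 6 did not pass, with a median log2 fold change of -0.27. The genes that rose were Map3k8, Map3k14 and Map3k5. Map3k8 encodes TPL2, the kinase that links Toll-like receptors to MEK1 and ERK in macrophages. Its level was 27.9 and 30.8 CPM in M0 replicates 1 and 2 and 64.1 and 60.8 CPM in M1 replicates 1 and 2. The groups were apart, and Map3k8 was 2.13-fold higher (log2 change 1.09 ± 0.122, adjusted p = 2.37e-05).

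Map3k14 encodes NIK, the kinase of the non-canonical NF-κB pathway. It had 21.2 and 22.5 CPM in M0 and 34.5 and 34.4 CPM in M1, so that the libraries within each group lay close together (log2 change 0.66 ± 0.136, adjusted p = 0.00213). Without M0 replicate 1 its adjusted p was 0.0546, the highest of its 13 settings, and the lowest was 0.000400. Map3k5 encodes ASK1, a kinase activated by oxidative stress, with 60.0 and 47.5 CPM in M0 and 63.5 and 77.8 CPM in M1. The lower M1 library lay just above the higher M0 library (log2 change 0.39 ± 0.144, adjusted p = 0.0432). Over the alternatives its adjusted p ran from 0.0116 to 0.45, and the call was lost without either M0 replicate, without M1 replicate 2, with upper-quartile or library-total scaling and with DESeq2.

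Among the 6 that fell, Map3k9 (chr12:81721010-81781175) changed most. This gene of the mixed-lineage kinase MLK1, an activator of JNK, had 8.68 and 9.56 CPM in M0 and 2.09 and 2.21 CPM in M1 (log2 change -2.08 ± 0.283, adjusted p = 0.000116). Map3k1 (chr13:111746428-111808993) encodes MEKK1, which acts on the JNK branch and also carries a ubiquitin ligase domain. It had 83.5 and 84.1 CPM in M0 and 32.9 and 34.1 CPM in M1, a 2.50-fold lower level (log2 change -1.32 ± 0.111, adjusted p = 2.42e-06). For both genes the 2 libraries of a group lay close together and far from those of the other group.

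Map3k2 and Map3k3 encode MEKK2 and MEKK3, related kinases of the ERK5 branch that also act on JNK and p38. Map3k2 had 116 and 114 CPM in M0 and 59.3 and 73.4 CPM in M1 (log2 change -0.79 ± 0.121, adjusted p = 0.00027). Map3k3 had 90.9 and 86.0 CPM in M0 and 58.7 and 72.8 CPM in M1 (-0.43 ± 0.124, adjusted p = 0.0147). In both, M1 replicate 1 was the lowest library. The call of Map3k3 was lost without either M0 replicate and without M1 replicate 1, and its adjusted p ran from 0.000917 to 0.185.

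Map3k12, the gene of the JNK pathway kinase DLK, had 12.7 and 13.3 CPM in M0 and 6.65 and 7.75 CPM in M1 (log2 change -0.85 ± 0.207, adjusted p = 0.00604). Its call was lost without either M0 replicate (adjusted p between 0.00100 and 0.0746 over the settings), and 19.3% of its exon bases also lie in exons of other genes, Pcbp2 among them. Map3k20, the gene of ZAK, a kinase activated by stalled and collided ribosomes, had 53.3 and 46.2 CPM in M0 and 30.6 and 33.9 CPM in M1 (-0.63 ± 0.131, adjusted p = 0.00236). Without M0 replicate 1 its adjusted p was 0.077, the highest of a range that began at 0.000206.

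The MAP3K genes that did not pass include Map3k7, which encodes TAK1, the kinase through which Toll-like and interleukin receptors reach JNK, p38 and NF-κB. Map3k7 had 104 and 107 CPM in M0 and 101 and 97.5 CPM in M1 (log2 change -0.09 ± 0.0994, adjusted p = 0.493). Its M1 libraries lay below its M0 libraries by less than the test could call. With library totals it passed as lower, and its adjusted p ran from 0.0141 to 0.764 over the settings. The other 5 were Map3k4, Map3k6, Map3k10, Map3k11 and Map3k15, with log2 fold changes between -0.57 (Map3k6) and 0.08 (Map3k4). Map3k6 had 5.08 and 4.98 CPM in M0 and 4.68 and 2.09 CPM in M1, so its difference rests on M1 replicate 2, and without M1 replicate 1 it passed (adjusted p from 0.0246 to 0.846). Map3k11, the gene of MLK3, passed as lower with library totals (adjusted p from 0.0219 to 0.956). Map3k13 and Map3k21 were not tested, since no library held more than 6 counts of the first or 2 counts of the second.

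**Figure D2:**
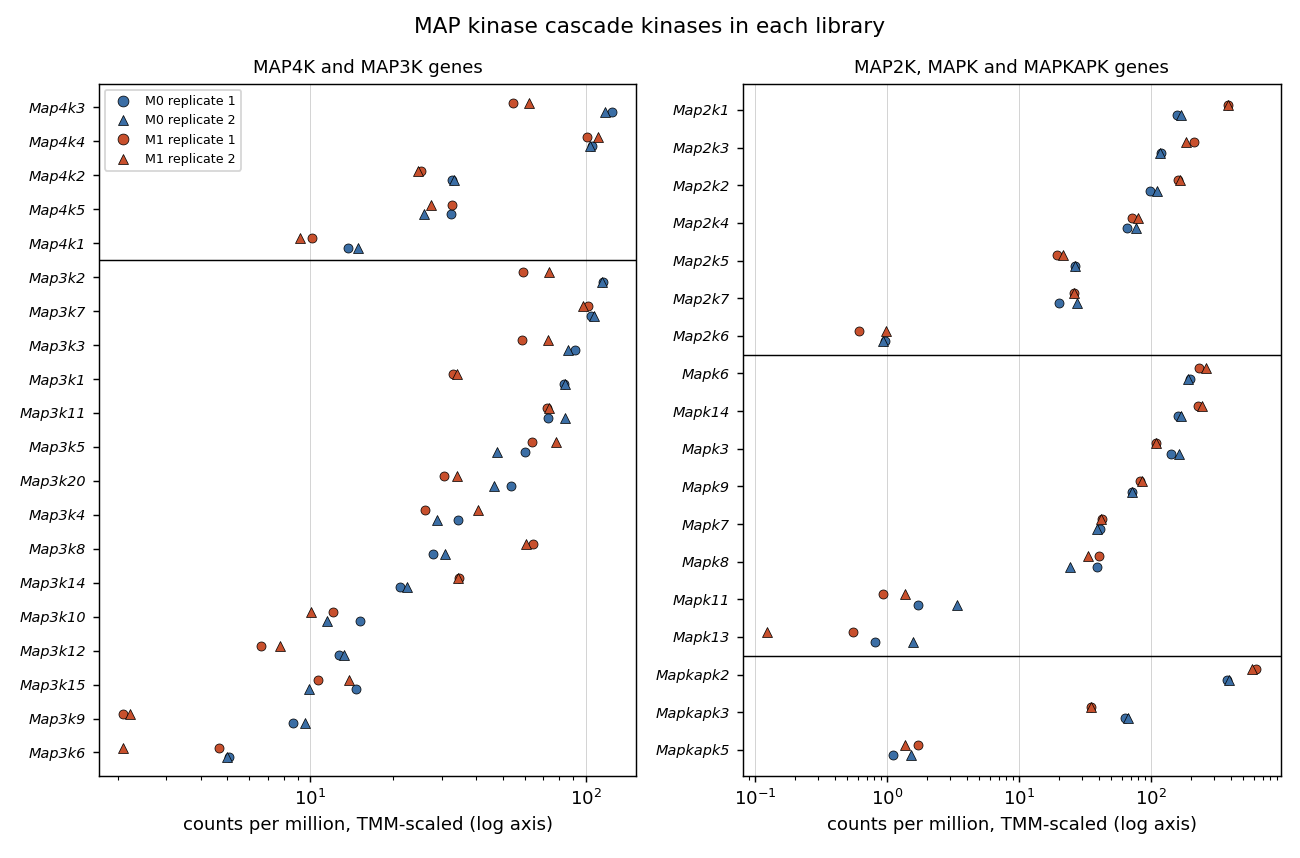
Level in CPM (x axis, log scale) of the tested kinases, 1 left out, in the 4 libraries: blue for M0, red for M1, circles for replicate 1 and triangles for replicate 2, with tiers separated by lines. The M1 libraries of Map4k3, Map3k1 and Map3k9 lie well below the M0 libraries, those of Map3k8 and Map2k1 well above, and those of Map3k4 and Mapk8 overlap them.

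Levels of different genes were compared per kilobase of exon. The order of the MAP3K genes changed between the groups. In M0 the highest was Map3k3 (22.0 ± 0.854 CPM per kb, SD, n = 2), followed by Map3k11 (17.8 ± 1.77) and Map3k7 (16.5 ± 0.297), whose libraries overlapped, and then by Map3k1 (11.2 ± 0.0574). Map3k8 was the seventh in M0, at 6.51 ± 0.45 CPM per kb. In M1 it was the fourth, at 13.9 CPM per kb, below Map3k11, Map3k3 and Map3k7 (16.6, 16.3 and 15.5). The M1 libraries of Map3k3 overlapped those of Map3k11 and of Map3k7, so the place of Map3k3 among them is not settled. Map3k1 stood at 4.50 CPM per kb in M1, below Map3k14 (5.26) and Map3k5 (11.6). These orders depend in part on the length used. With the mean transcript length, Map3k8 stood below Map3k20 in M0 (16.1 against 21.2 CPM per kb) and below Map3k5 in M1 (34.2 against 35.9), and Map3k1 stood above Map3k14 in M1 (18.2 against 15.9). Map3k8 stood below Map3k1 and Map3k2 in M0 and above both in M1 with either length.

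**Figure D3:**
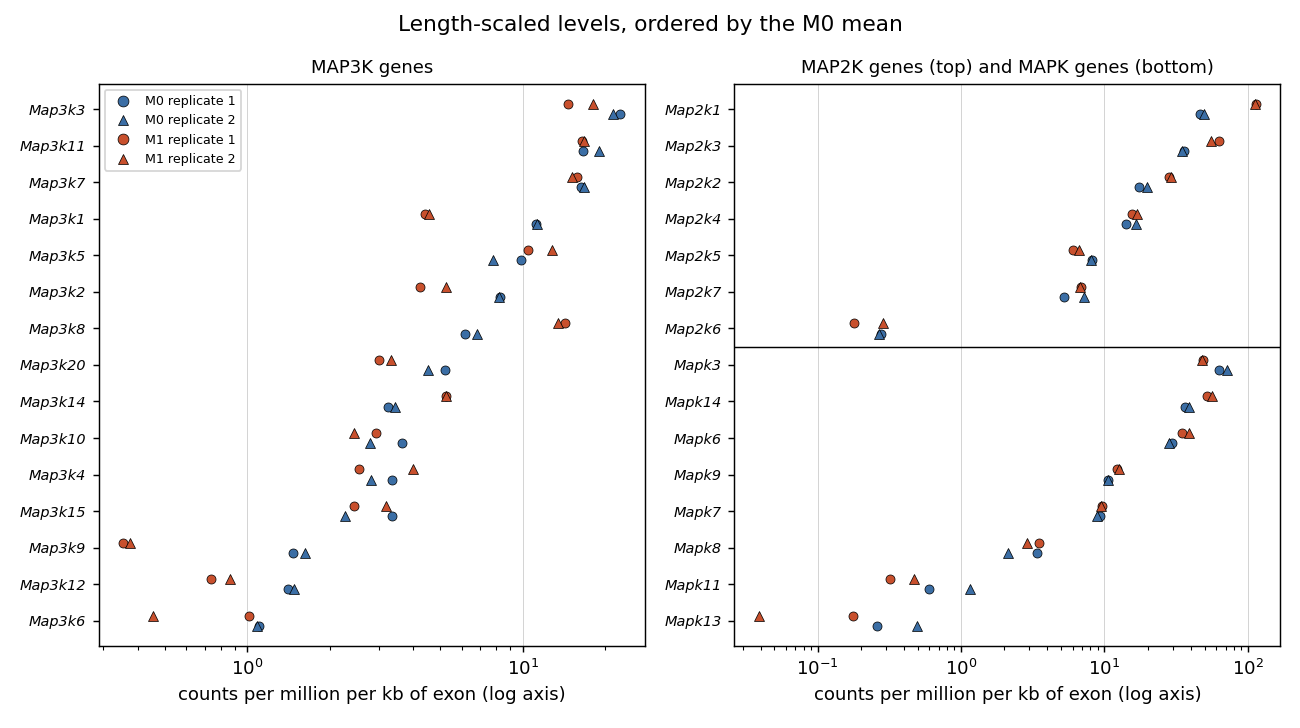
CPM per kilobase of exon (x axis, log scale) of the tested MAP3K genes (left) and of the MAP2K and MAPK genes (right, 1 left out) in each library, ordered by the M0 mean, with blue for M0, red for M1, circles for replicate 1 and triangles for replicate 2. Map3k8 lies below Map3k1 and Map3k2 in M0 and above both in M1, and Mapk14 passes Mapk3 and Map3k8 passes Map3k5 on this length scale but not with mean transcript lengths.

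In the MAP2K tier, the dual-specificity kinases that phosphorylate the MAPKs, the genes of the ERK kinases MEK1 and MEK2 and of the p38 kinase MKK3 rose. Map2k1 (chr9:64185770-64253631) had 158 and 168 CPM in M0 replicates 1 and 2 and 385 and 381 CPM in M1 replicates 1 and 2 (log2 change 1.23 ± 0.0946, adjusted p = 1.08e-06). Map2k2 had 98.0 and 112 CPM in M0 and 161 and 164 CPM in M1 (0.63 ± 0.104, adjusted p = 0.000468). For both MEK genes every M1 library lay above every M0 library. Map2k3 (chr11:60932033-60952811) had 119 and 116 CPM in M0 and 211 and 184 CPM in M1 (0.75 ± 0.103, adjusted p = 0.000126). These 3 calls held in every one of the 13 alternative settings.

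Map2k6, the gene of MKK6, also a p38 kinase, stayed at or below 0.984 CPM in every library (0.959 and 0.927 CPM in M0, 0.615 and 0.984 CPM in M1) and did not pass (adjusted p = 0.783). The genes of the JNK branch kinases did not pass either. Map2k4, which encodes MKK4, a kinase of p38 as well as of JNK, had 66.0 and 77.2 CPM in M0 and 72.3 and 79.0 CPM in M1 (log2 change 0.08, adjusted p = 0.607). Map2k7, which encodes MKK7, had 20.1 and 27.6 CPM in M0 and 26.2 and 26.1 CPM in M1 (0.14, adjusted p = 0.539), and 35.2% of its exon bases are shared with a gene model on the same strand. In both genes the groups overlapped. Map2k5, which encodes the ERK5 kinase MEK5, had 26.6 and 26.3 CPM in M0 and 19.5 and 21.7 CPM in M1 (log2 change -0.36 ± 0.146), without overlap, and missed the threshold with an adjusted p of 0.0619. Over the 13 settings its adjusted p ran from 0.00464 to 0.22, and it passed with upper-quartile or library-total scaling and with libraries thinned to equal totals.

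Per kilobase, the order of the 4 highest MAP2K genes was the same in both groups: Map2k1 (48.1 ± 2.19 CPM per kb in M0, 113 ± 0.778 in M1; SD, n = 2), Map2k3 (35.5 and 59.6), Map2k2 (18.5 and 28.7) and Map2k4 (15.4 and 16.2). Neighbours in this order did not overlap. Within the MEK pair, Map2k1 took 72.9% and 71.5% of the length-scaled counts in the M0 libraries and 80.0% and 79.5% in the M1 libraries. Such a share does not depend on how libraries are scaled. Map2k3 took 99.2% of the counts of the Map2k3 and Map2k6 pair in each M0 library and 99.7% and 99.5% in the M1 libraries. This pair leaves out Map2k4, whose product also acts on p38.

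Of the MAPK tier, 9 of 13 genes were tested, 2 rose, 1 fell and 6 did not pass. Mapk3, which encodes ERK1, had 142 and 162 CPM in M0 and 110 and 109 CPM in M1 (log2 change -0.48 ± 0.104, adjusted p = 0.00308), with no overlap. Without M0 replicate 2 its adjusted p was 0.086, the highest over its settings, the lowest being 0.000123.

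Among the p38 genes, Mapk14 (chr17:28691329-28748406), which encodes p38α, the main p38 kinase of macrophages and a regulator of cytokine mRNA, had 159 and 169 CPM in M0 and 228 and 245 CPM in M1. Every M1 library lay above every M0 library (log2 change 0.53 ± 0.097, adjusted p = 0.00102). Its adjusted p was 0.0579 without M0 replicate 1, which ended the call, and as low as 1.11e-05 in the other settings. Mapk11, the gene of p38β, had 1.73 and 3.36 CPM in M0 and 0.923 and 1.35 CPM in M1, and Mapk13, the gene of p38δ, had 0.815 and 1.56 CPM in M0 and 0.554 and 0.123 CPM in M1. Their groups did not overlap, but the counts were few and neither passed (adjusted p = 0.0977 and 0.0891; Mapk11 passed with library totals, over a range of 0.0452 to 0.523). Mapk12, the gene of p38γ, had 10 and 1 counts in M0 and 2 and 17 counts in M1 and was not tested. Mapk14 took 97.4% and 95.8% of the length-scaled counts of the p38 genes in M0 and 99.0% and 98.6% in M1.

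The JNK genes did not pass. Mapk8, which encodes JNK1, had 38.7 and 24.4 CPM in M0 and 40.3 and 33.0 CPM in M1, and its groups overlapped (log2 change 0.21 ± 0.2, adjusted p = 0.41). Mapk9, which encodes JNK2, had 71.5 and 71.7 CPM in M0 and 82.8 and 85.9 CPM in M1 (0.24 ± 0.104, adjusted p = 0.0824). The libraries of Mapk9 did not overlap, and the difference was too small to pass. The share of Mapk8 in the pair overlapped between groups, at 24.3% and 16.8% in M0 and 22.4% and 18.6% in M1. Mapk10, the gene of JNK3, which is known from neurons, had at most 3 counts in a library and was not tested.

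Mapk7, which encodes ERK5, had 40.8 and 38.9 CPM in M0 and 42.1 and 41.6 CPM in M1 (log2 change 0.07, adjusted p = 0.659) and did not pass. Mapk6, which encodes the atypical kinase ERK3, had 198 and 189 CPM in M0 and 232 and 260.5 CPM in M1 (0.35 ± 0.0995, adjusted p = 0.0137). The groups of Mapk6 did not overlap, but its call was lost without either M0 replicate, without M1 replicate 2 and with upper-quartile or library-total scaling, over an adjusted p range of 0.0060 to 0.447. The other atypical genes, Mapk4 and Mapk15, had no count in any library, where 3 counts correspond to 0.144 to 0.185 CPM. Per kilobase, Mapk3 was the highest MAPK gene in M0 (67.4 ± 6.31 CPM per kb), above Mapk14 (37.5 ± 1.68), Mapk6 (29.0 ± 0.889), Mapk9 (10.6) and Mapk7 (9.07). In M1 Mapk14 came first (54.0 ± 2.74), before Mapk3 (48.4 ± 0.27), Mapk6 (36.9 ± 3.00) and Mapk9 (12.4), without overlap among these. With the mean transcript length Mapk14 was not the first in M1: it stood at 110.1 CPM per kb, below Mapk3 (114) and Mapk6 (127), and in M0 too it stood below Mapk6 (76.4 against 99.4).

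The MAPK-activated kinases MK2 and MK3 are related substrates of p38, and MK2 is known for stabilising the mRNA of tumour necrosis factor and other cytokines. Their genes moved in opposite directions. Mapkapk2 (chr1:131053700-131097826) had 376 and 387 CPM in M0 and 624 and 579 CPM in M1 (log2 change 0.66 ± 0.0937, adjusted p = 0.000162). Mapkapk3 (chr9:107254927-107289877) had 63.9 and 66.5 CPM in M0 and 35.0 and 34.9 CPM in M1 (-0.90 ± 0.114, adjusted p = 6.88e-05). Neither gene overlapped between groups, and both calls held in all 13 alternative settings.

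The share of Mapkapk3 in the MK2 and MK3 pair was 8.53% and 8.62% in M0 and 2.99% and 3.20% in M1. Mapkapk2 was thus the higher of the pair in every library, at 125 ± 2.61 CPM per kb in M0 and 198 ± 10.6 in M1, against 11.8 ± 0.339 and 6.31 ± 0.0104 for Mapkapk3. Mapkapk5, which encodes MK5, a partner of ERK3, had at most 1.72 CPM in a library and did not pass (log2 change 0.24, adjusted p = 0.741). Of its exon bases 56.5% lie in exons of other genes, some on the same strand, so its count is uncertain. For these shares 5 sets were compared without a test, because 2 against 2 libraries cannot give a two-sided exact permutation p below 0.333.

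**Figure D4:**
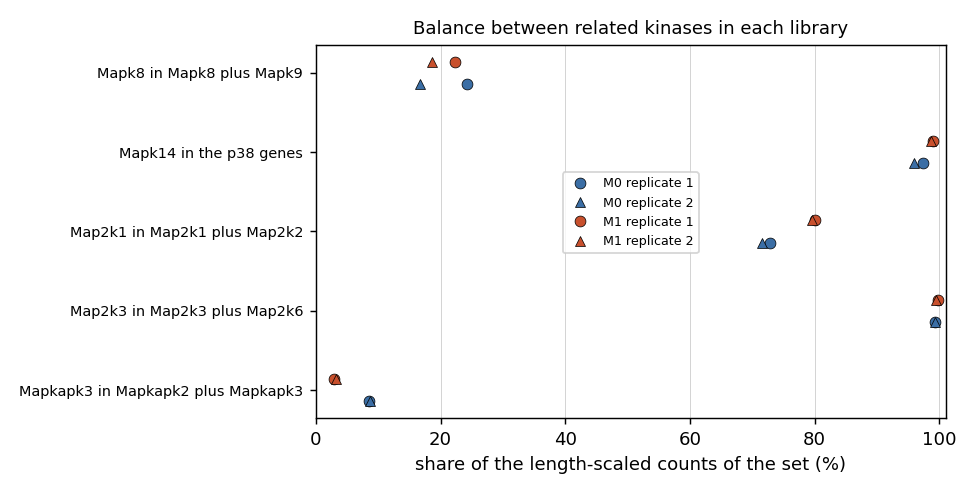
Share (x axis, percent) of 1 gene in the length-scaled counts of its pair or set, in each of the 4 libraries (blue M0, red M1, circles replicate 1, triangles replicate 2). The share of Mapkapk3 is lower in both M1 libraries, that of Map2k1 is higher, and that of Mapk8 overlaps between the groups.

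Summed per kilobase over a whole tier, the MAP2K genes had 132 ± 6.23 CPM per kb in M0 and 231 ± 4.38 in M1 (SD, n = 2), and the MAPK-activated kinases 138 ± 3.03 and 205 ± 10.7. The MAP4K sum was 36.0 ± 0.915 in M0 and 27.3 ± 0.573 in M1, and the MAP3K sum 112 ± 1.75 and 102 ± 5.28. The MAPK sum was 187 ± 6.94 and 196 ± 4.52. The ranges of the 2 groups overlapped in none of these sums, and the MAPK libraries came closest, with 192 CPM per kb in M0 replicate 2 and 193 in M1 replicate 1. Of all tested genes, 74.9% did not overlap either. Mapkapk2 alone made up 125 CPM per kb of its tier in M0 and 198 in M1, so the fall of Mapkapk3 does not show. The sums use TMM scaling and were not repeated with library totals, which moved the median of all genes by -0.25. The direction of the small MAPK difference is therefore uncertain.

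Of the 7 matched genes that are no kinases, 5 were tested. Map2k3os is an RNA gene (chr11:60920917-60931867, minus strand) that lies next to Map2k3 in the opposite orientation and shares no exon base with it. Its level was 4.08 and 2.90 CPM in M0 and 9.85 and 9.72 CPM in M1, 2.79-fold higher (log2 change 1.48 ± 0.27, adjusted p = 0.00097), and so it rose beside Map2k3. Whether the counting used strand is not given in the sources used here. Mapk8ip3, the gene of the JNK scaffold JIP3, had 76.1 and 75.2 CPM in M0 and 97.6 and 106 CPM in M1 (0.43 ± 0.104, adjusted p = 0.00582). Its call was lost without either M0 replicate and with library totals (adjusted p from 0.00258 to 0.185), and 20.4% of its exon bases are shared with Eme2, Mrps34 and Nme3.

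Mapk1ip1, named as an interacting protein of a MAPK, had 11.8 and 12.7 CPM in M0 and 4.12 and 8.30 CPM in M1 (log2 change -0.98 ± 0.294, adjusted p = 0.0175). The M1 libraries of Mapk1ip1 differed widely, and the call was lost without either M0 replicate and without M1 replicate 1 (adjusted p from 0.000400 to 0.203). Mapk1ip1l had log2 fold change 0.03, and the JNK scaffold gene Mapk8ip1, at most 1.20 CPM, had -1.47 (adjusted p = 0.103). The scaffold gene Mapk8ip2 had no count, and Map3k7cl had 6 and 3 counts in M0 and none in M1, and neither was tested. Across all 52 members, 9 share at least 10% of their exon bases with other genes. With genes that overlap the member on the genome left out, no member's transcript shares more than 9.4% of its length with other genes at 95% identity.

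Other genes of the pathway were read from 5 lists, each given beside the 48.2% of all tested genes that were called. Of 10 tested kinases that act upstream without a Map symbol, 1 was higher and 3 were lower (median log2 fold change -0.03). Araf, a RAF kinase, rose (0.35 ± 0.109, adjusted p = 0.022), while its relative Braf had 0.11 and did not pass. The scaffold kinase gene Ksr2 fell, from 3.26 and 1.80 CPM in M0 to 0.492 and 0.123 CPM in M1, and so did the MAP4K relative Mink1 (-0.87) and Taok1 (-0.39). Of 7 tested effector kinases of ERK and p38, 5 were lower and 1 higher (median -0.70). Rps6ka2, which encodes the ERK substrate RSK3, fell from 20.5 and 16.6 CPM to 5.23 and 5.23 CPM (-1.83 ± 0.208, adjusted p = 2.78e-05). Mknk2, which encodes the eIF4E kinase MNK2, fell from 157 and 170 CPM to 71.6 and 64.1 CPM (-1.27). Rps6ka5, which encodes the histone kinase MSK1, fell (-1.14), and Rps6ka4, which encodes MSK2, rose (0.63).

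Of 20 scaffolds and activating partners, 7 were higher and 5 lower (median log2 fold change -0.11). Gadd45b, an activator of the MAP3K encoded by Map3k4, rose from 19.9 and 20.3 CPM to 117 and 113 CPM (2.52 ± 0.114, adjusted p = 1.31e-08), and Traf2, a receptor adaptor upstream of ASK1 and NIK, rose by 1.98. Nfkb1, whose p105 product holds TPL2, rose by 1.27, and Tnip2, which encodes ABIN2, the other partner of TPL2, by 0.57. Spag9, the gene of the JNK scaffold JIP4, fell (-1.27). The TAK1 partner genes Tab1, Tab2 and Tab3 did not pass. Of 11 tested MAPK phosphatases 7 were higher and 3 lower (median 1.07), with Dusp2 at 2.55, Dusp5 at 2.40, Dusp16 at 2.08 and Dusp9 at -3.26. The change of Dusp9 rests on few counts, 34 and 56 in M0 and 4 and 4 in M1. Of 16 tested transcription factors that MAPKs phosphorylate 6 were higher and 6 lower (median -0.13), with Fosl1 at 2.39, Ets2 at 1.94 and Mef2a at -1.44, and with the related genes Junb at 1.35 and Jun at -1.27 in opposite directions. Exons of Fosl1 overlap another gene over 57.2% of their bases, those of Dusp5 over 22.1% and those of Rps6ka4 over 19.8%.

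**Figure D5:**
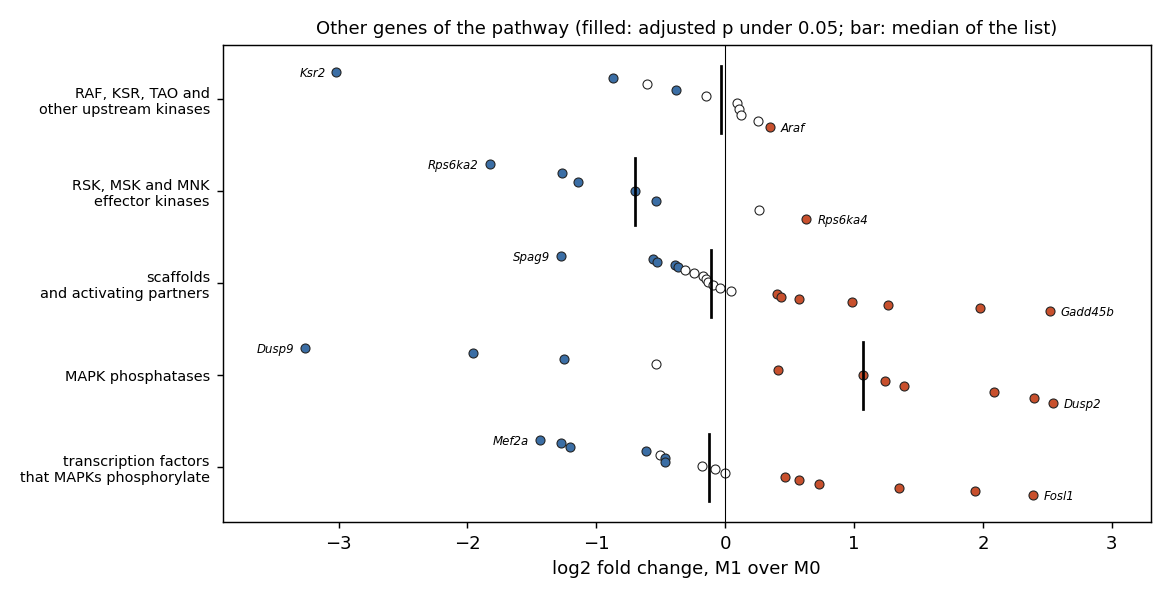
Log2 fold change (x axis, M1 over M0) of the tested genes in 5 lists of other pathway genes, 1 point a gene, filled where the adjusted p was below 0.05 (red higher, blue lower), with a bar at the median and the lowest and highest called genes named. The phosphatase median is at 1.07 and the effector kinase median at -0.70, and the other 3 medians lie between -0.13 and -0.03.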

How the data were processed

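The authors deposited a raw read count for each gene symbol in each of the 4 libraries. Per the submitters' processing notes, Subread 2.0.1 with featureCounts, the mm10 build, R 4.0.4 and DESeq2 1.30.1 were used. The aligner, the annotation and the strand setting are not given in the sources used here, so counts of overlapping genes are uncertain. From these counts, low genes were removed in edgeR 4.0.16 (R 4.3.3) by filterByExpr, with 10 as the least count and 15 as the least total. Libraries were scaled by TMM, and M1 was set against M0 by the quasi-likelihood test with the group as the only term. The Benjamini-Hochberg method was applied to the 12966 genes left, and an adjusted p below 0.05 was called. The biological coefficient of variation was 10.9% with 2 residual degrees of freedom. CPM uses library totals times TMM factors. Standard errors were derived from the fold change and its F statistic. Coordinates, exon lengths and overlaps come from the GENCODE annotation of GRCm38 (the assembly of mm10), sequence shared between genes from BLAST 2.17.0, and promoters from RefSeq.

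Library totals limit the precision: 3 counts correspond to 0.144 to 0.185 CPM. The correlation of replicate deviations between groups was -0.08, and the replicate numbers were not taken to pair the libraries. Within M0 and M1 the libraries differed by more than sampling noise (chi-square over degrees of freedom 7.76 and 10.9). The members and lists were chosen with earlier results of these data known. Values in every library are given for called members with an absolute log2 change of at least 1 and at least 1 CPM, for the main branches of the cascade whatever their result, and for some other members. Of each other list up to 3 called genes with the largest change and the largest called in the opposite direction are named. Dusp16, Braf, the Tab genes, Nfkb1, Tnip2, Jun and Junb were added and chosen after their values were seen. Mos and Ptprr were not analysed here, and some genes are not reported here. Alternatives were other scaling, filters, a replicate block, leaving out each library, thinning, DESeq2 1.42.0, limma-voom 3.58.1 and another gene length.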

Additional observations from a re-analysis of the deposited data

How the results depend on the processing

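Of the 23 called members, 11 passed in all 13 settings (Map2k1, Map2k2, Map2k3, Map2k3os, Map3k1, Map3k2, Map3k8, Map3k9, Map4k3, Mapkapk2 and Mapkapk3), 12 lost their call in at least 1 and none reversed. Leaving out 1 library in turn gave 3154 (without M0 replicate 1) to 5819 called genes, and 3381 without M0 replicate 2. These fits called 6 to 11 members higher and 6 to 10 lower. The 2 lowest counts of all genes and of lower members came without an M0 replicate. Each of these fits, without an M0 or an M1 replicate, leaves 1 library in a group and assumes that it varies like the other group. The cause of the lower counts without an M0 replicate was not tested. With the replicate number as a block, 5932 genes were called and Map4k2 was the one member lost; Map3k15 then had a log2 fold change of 0.0109. With mean transcript lengths the shares, M0 then M1, were 39.6% and 39.7% for Mapk8, 62.1% and 71.3% for Map2k1 and 17.7% and 6.81% for Mapkapk3, and 99.4% for Map2k3 in M0; the other length is what changed. Without the members that share exons, 9 were higher and 8 lower.

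The sign of members that did not pass was less stable, and the cause was not tested. With upper-quartile factors the log2 fold change was -0.0237 for Map2k4, -0.0240 for Map3k4, -0.0875 for Map4k4, -0.0557 for Map4k5, -0.0764 for Mapk1ip1l and -0.0338 for Mapk7. With library totals it was -0.17 for Map2k4 and Map3k4, -0.11 for Map2k7, -0.24 for Map4k4, -0.21 for Map4k5, -0.22 for Mapk1ip1l, -0.18 for Mapk7, -0.0429 for Mapk8, -0.0155 for Mapk9 and -0.00806 for Mapkapk5. Map3k15 had 0.00077 with relative log expression factors, 0.0208 with thinned libraries and 0.0024 with DESeq2. Leaving out 1 library in turn gave a range of -0.0282 to 0.20 for Map2k4, -0.60 to 0.0595 for Map2k6, -0.0762 to 0.38 for Map2k7, -0.27 to 0.37 for Map3k4, -0.20 to 0.0109 for Map3k11, -0.25 to 0.31 for Map3k15, -0.0426 to 0.0834 for Map4k4, -0.10 to 0.23 for Map4k5, -0.0684 to 0.14 for Mapk1ip1l and -0.0755 to 0.59 for Mapk8.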
